A study of Mus musculus with 6 samples.

Results

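The 45 cytochrome P450 genes detected in whole mouse kidney were compared between libraries labelled KspCre Tfam f/f and libraries labelled Tfam f/f. Members were the genes whose symbol was Cyp followed by a family number, a subfamily letter and a gene number, with or without a final letter, and whose raw counts summed to at least 60 over the 6 libraries. Cyp27b1, Cyp24a1 and Cyp2r1, the vitamin D hydroxylases, were left out by definition. Of 54146 genes in the deposited files, 96 symbols matched, 45 reached the minimum, and 51 fell below it, of which 25 had no read in any library. At the edge of the minimum, Cyp2c68, Cyp26a1 and Cyp4f39 had total counts of 65, 66 and 103, while Cyp4x1, Cyp17a1 and Cyp2b10, just outside, had 53, 42 and 37. The members fell into 10 families and 22 subfamilies, 16 of them with 1 member here.

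Polyadenylated RNA from whole kidneys of 12-week-old mice (postnatal day 84) of strain B6C3F1/J was sequenced in 3 libraries labelled KspCre Tfam f/f and 3 labelled Tfam f/f. Mice of both groups carry floxed Tfam, the gene of a protein that packages and transcribes mitochondrial DNA, and the group labelled KspCre Tfam f/f also carries a Cre transgene. Its promoter is that of Ksp-cadherin (Cdh16), which is active in renal tubule epithelium, so cells outside the tubule are not targeted. The study asked how loss of Tfam from tubules alters the kidney.

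Cytochromes P450 are heme enzymes that insert oxygen into lipids, steroids and foreign compounds. Most sit in the endoplasmic reticulum and draw electrons from NADPH through the reductase Por, and a few, such as Cyp27a1, sit in mitochondria and use ferredoxin. In the kidney they are known for turning arachidonic acid into epoxides (Cyp2c and Cyp2j enzymes) or omega-hydroxylated acids (Cyp4a enzymes), mainly in the proximal tubule, and several mouse renal P450 genes respond to androgen.

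The promoters of the 3 members with the highest mean level per kilobase over the 6 libraries are shown, because these genes hold the most P450 reads. Each line holds the 250 bases before the RefSeq transcript start (GRCm38.p6), read 5′ to 3′ on the gene's strand, and capitals mark a TATAAA box on either strand (TTTATA where it lies on the other strand).
Cyp4b1, chr4:115647722-115647971, minus strand: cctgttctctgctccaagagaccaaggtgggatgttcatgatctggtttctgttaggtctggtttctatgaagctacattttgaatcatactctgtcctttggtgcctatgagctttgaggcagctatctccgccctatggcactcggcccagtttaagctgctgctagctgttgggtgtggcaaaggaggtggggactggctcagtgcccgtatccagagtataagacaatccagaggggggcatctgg
Cyp2j5, chr4:96664120-96664369, minus strand: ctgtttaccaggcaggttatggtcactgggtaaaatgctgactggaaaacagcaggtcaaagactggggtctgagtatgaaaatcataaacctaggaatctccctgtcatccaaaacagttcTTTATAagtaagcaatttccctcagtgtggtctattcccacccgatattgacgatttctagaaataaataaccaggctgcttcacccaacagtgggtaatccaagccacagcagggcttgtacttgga
Cyp2e1, chr7:140763569-140763818, plus strand: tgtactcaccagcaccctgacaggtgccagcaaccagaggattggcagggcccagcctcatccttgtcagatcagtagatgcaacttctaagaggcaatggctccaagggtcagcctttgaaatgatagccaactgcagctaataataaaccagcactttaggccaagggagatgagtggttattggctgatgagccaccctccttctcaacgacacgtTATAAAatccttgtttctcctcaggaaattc
Among them, the box of Cyp2e1 began at -31 relative to the transcript start, that of Cyp2j5 lay at -128, and the Cyp4b1 window held no such match. Over the 32 members with a promoter entry, 9 held TATAAA, against 13.0% of 27025 promoters of the same length. The letters GTTAAT, the half-site bound by HNF1 factors, were found in 6 of the 32 members and in 6.52% of all promoters. These members include Cyp2a4 with Cyp2a5 and Cyp2c68 with Cyp2c69, whose promoters are 97.6% and 91.3% identical, so the matches are not independent. Cyp2a4 and Cyp2a5 are also among the 9 with TATAAA. For Cyp2c68 and Cyp4a32, among other members, the bases after the start were not found near the start of an annotated transcript. The core GCGTG of the dioxin receptor was found in 11 of 32 members and in 28.2% of promoters, and a direct repeat of AGGNCA with any 1 base between its copies, which PPAR and HNF4 can bind, in Cyp2d9 alone and in 0.333% of promoters. The letters AGAACA, the half-site bound by the androgen receptor, were found in 5 of the 32 members, among them Cyp4b1, and in 16.2% of all promoters. All motifs were read on both strands, and a match is a run of letters, not a site shown to be bound.

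Total counts over genes ranged between 30348281 and 48899266 in libraries labelled KspCre Tfam f/f, and between 19024208 and 34821537 in those labelled Tfam f/f. The targeted gene went against the labels: Tfam had 63.1, 63.5 and 61.4 CPM in libraries labelled KspCre Tfam f/f, against 30.3, 33.6 and 23.2 CPM in those labelled Tfam f/f. The groups did not overlap, and Tfam was 2.15-fold higher (log2 fold change 1.11, SE 0.14, adjusted p = 0.00107). The names of the deposited files carry WT for libraries labelled KspCre Tfam f/f and MV for those labelled Tfam f/f. Every direction below refers to the labels as deposited and would turn round if the labels were exchanged, which was not tested. Ddx3y stood between 43.4 and 75.6 CPM and Xist between 0.132 and 0.329 CPM in the 6 libraries, a male pattern in every library. Tfam f/f replicate 3 stood apart: it was the lowest of the 6 libraries for 24 of the 45 members, against 29.0% of all 17308 genes tested. The labels do not state that libraries of a group came from separate mice, so a p-value reflects no more than the spread among the 3 libraries of each group, which could be technical.

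All values below are normalized CPM, computed from raw counts with TMM factors, and tests are edgeR's quasi-likelihood test with Benjamini-Hochberg adjustment over 17308 genes, called at an adjusted p below 0.05. A log2 fold change is KspCre Tfam f/f over Tfam f/f. In whole kidney, fewer cells of a type and less RNA per cell cannot be told apart.

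P450 transcripts were on balance more abundant in libraries labelled KspCre Tfam f/f, but the members did not move together. Of the 45 members, all of which were tested, 25 were called, 16 of them higher (35.6%) and 9 lower (20%), and 20 were not called. Among all genes tested, 46.2% were called, 21.3% higher and 24.9% lower. The median log2 fold change was 0.29 over the members and -0.03 over all genes, and the members ranged between -3.29 (Cyp4f39) and 3.97 (Cyp7b1). By at least 2-fold, 12 members were called higher and 6 lower, where the shares of all genes were 8.75% and 13.2%. The libraries of the groups did not overlap for 18 members that were higher in KspCre Tfam f/f and for 10 that were lower, against 29.8% and 32.1% of all genes. Cyp1a1, Cyp4f14 and Cyp4f15, called higher, and Cyp4f39, called lower, passed the minimum count for members only through their higher group. These counts of members thus depend in part on the rule for members. Counts depended on single libraries, for the members and for all genes. Without KspCre Tfam f/f replicate 2, 10 of 45 members and 2276 of 17754 genes tested were called higher. Without Tfam f/f replicate 1, 7 of 45 members and 2855 of 17779 genes were called higher. Without KspCre Tfam f/f replicate 1, 5 of 45 members and 2914 of 17745 genes were called lower. Without Tfam f/f replicate 3, 14 members and 3613 of 17740 genes were called higher, and 10 members and 4023 genes lower. With scaling by total counts alone, which moved the median of all genes by -0.43, 12 members were called higher and 13 lower, and of all genes 1680 and 8519, where TMM scaling gave 3690 and 4310.

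**Figure D1:**
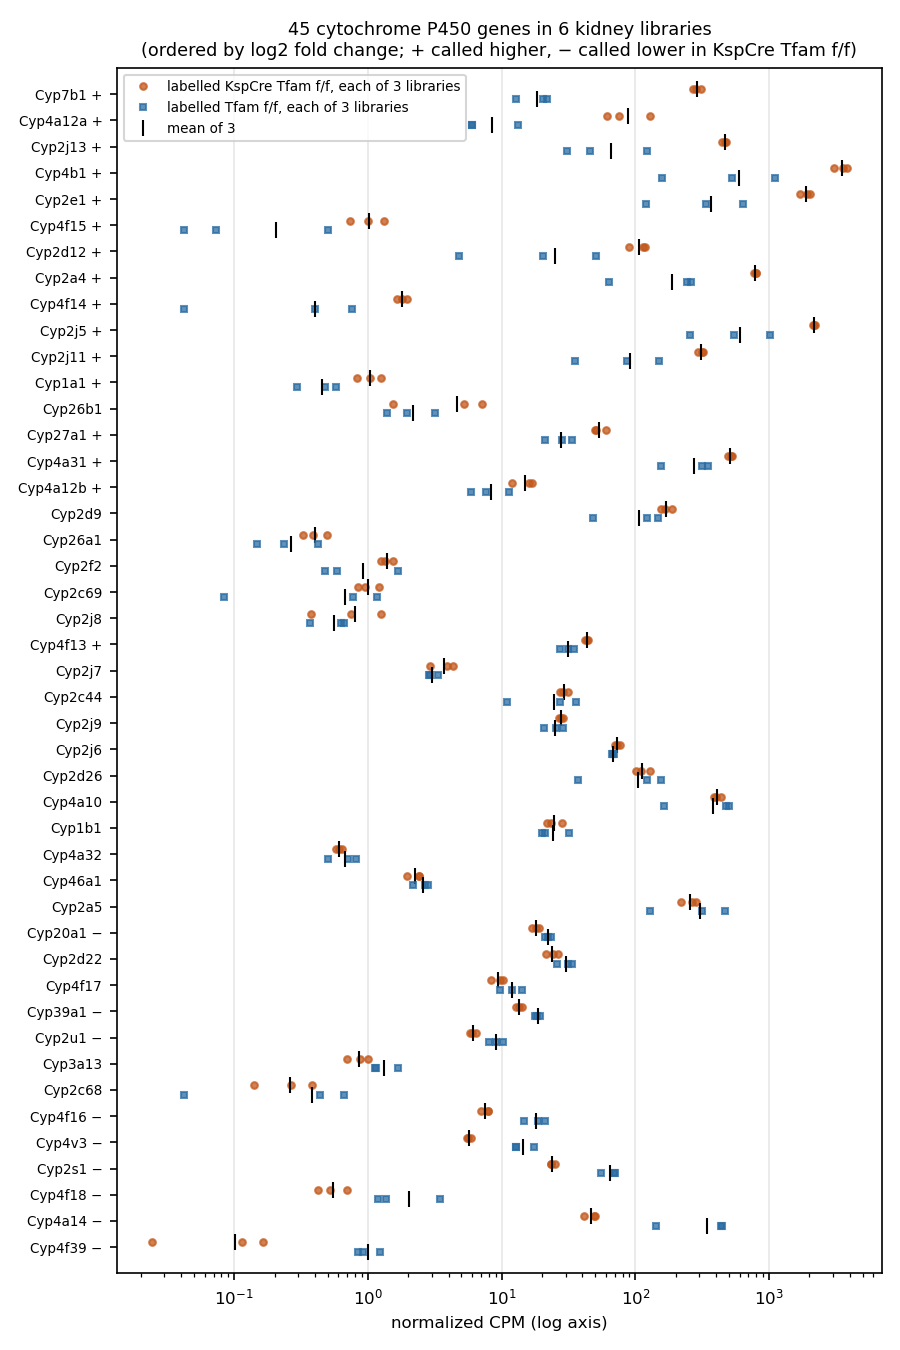
Normalized CPM (log axis) of the 45 P450 genes in each library, with circles for 3 libraries labelled KspCre Tfam f/f, squares for the 3 labelled Tfam f/f and black ticks for group means. Cyp7b1 at the top has the largest increase and Cyp4f39 at the bottom the largest decrease, and the Tfam f/f squares of most genes near the top are spread far more widely than the KspCre Tfam f/f circles.

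The spread between libraries was unequal. For the median member, the highest library was 1.21-fold above the lowest among those labelled KspCre Tfam f/f and 2.21-fold among those labelled Tfam f/f, while the medians over all genes were 1.15-fold in KspCre Tfam f/f and 1.41-fold in Tfam f/f. Among the 16 members called higher, the Tfam f/f spread had a median of 3.96-fold, and in 12 of the 16 the order of the Tfam f/f libraries was replicate 2 highest, replicate 1 next and replicate 3 lowest. All genes called higher had that order in 56.1% of cases. The 9 members called lower had a median Tfam f/f spread of 1.37-fold.

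Summed over members, P450 transcripts came to 10936, 12037 and 11418 CPM in libraries labelled KspCre Tfam f/f, against 4238, 5659 and 1755 CPM in those labelled Tfam f/f. The means were 11464 ± 552 CPM in KspCre Tfam f/f and 3884 ± 1976 CPM in Tfam f/f (SD, n = 3 each), a ratio of 2.95. On the log2 scale this ratio was 1.56, and it was 1.95 without Tfam f/f replicate 2, 1.21 without Tfam f/f replicate 3 and 1.17 with scaling by total counts alone. The 5 members most abundant in libraries labelled KspCre Tfam f/f, Cyp4b1, Cyp2j5, Cyp2e1, Cyp2a4 and Cyp4a31, summed to 8822 ± 503 CPM there and 2025 ± 1301 CPM in libraries labelled Tfam f/f (SD, n = 3 each). They were chosen by their level in KspCre Tfam f/f, so these sums only describe where the reads lay.

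**Figure D2:**
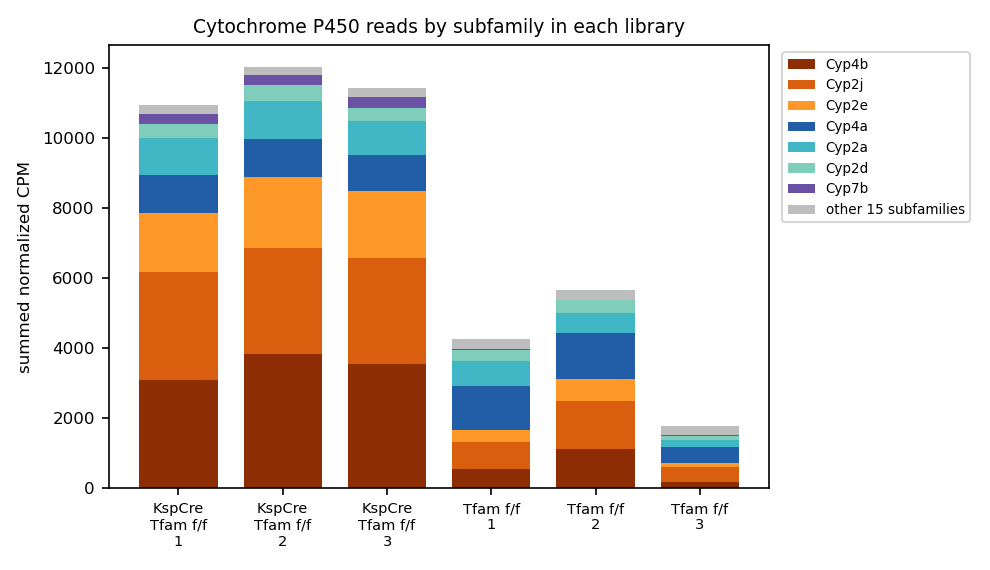
Summed normalized CPM of P450 genes in each library, stacked by subfamily, with 3 libraries labelled KspCre Tfam f/f on the left and the 3 labelled Tfam f/f on the right. The stacks reach between 10936 and 12037 CPM on the left and between 1755 and 5659 CPM on the right, where the Cyp4a segment takes a larger share.

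Per kilobase of exon, the order of the mean levels also differed. Cyp4b1 ranked first and Cyp2j5 second in both groups, at 1543 and 923 CPM per kilobase in KspCre Tfam f/f and at 265 and 257 in Tfam f/f, where the libraries of these neighbours overlapped. Cyp2e1 ranked 3 in KspCre Tfam f/f, at 869.9 CPM per kilobase, and Cyp4a10 ranked 3 in Tfam f/f, at 180.3. The ranks use group means, and single libraries differed. Per kilobase, Cyp2e1 was above Cyp2j5 in KspCre Tfam f/f replicate 2 and above Cyp4a10 in Tfam f/f replicate 2. Cyp7b1 ranked 8 in KspCre Tfam f/f and 18 in Tfam f/f, and Cyp4a12a ranked 13 in KspCre Tfam f/f and 28 in Tfam f/f. Split into 3 classes by mean level per kilobase over all 6 libraries, the highest 15 members held 9 called higher (60%) and 1 called lower (6.67%). The middle 15 held 4 (26.7%) and 5 (33.3%), and the lowest 15 held 3 and 3 (20% each), beside 21.3% and 24.9% of all genes. The mean includes the KspCre Tfam f/f libraries, so a gene higher there is moved toward the upper class, and the split only describes the levels.

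Among the arachidonic acid epoxygenases, 3 of 7 Cyp2j genes were called higher in libraries labelled KspCre Tfam f/f, beside 21.3% of all genes. None was called lower except Cyp2j6 with scaling by total counts alone. The other 4 genes of the cluster were not called. Cyp2j5 (ENSMUSG00000052520.7, chromosome 4, 96628773 to 96664154, minus strand), the main renal epoxygenase of this subfamily, had 2204, 2134 and 2156 CPM in libraries labelled KspCre Tfam f/f, against 547, 1006 and 254 CPM in those labelled Tfam f/f. The 3 KspCre Tfam f/f libraries lay within a narrow band, all above the Tfam f/f libraries, which spread widely. Cyp2j5 was 3.59-fold higher (log2 fold change 1.85, SE 0.45, adjusted p = 0.0135).

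Cyp2j13 changed most in the subfamily, with 446, 469.9 and 479 CPM in libraries labelled KspCre Tfam f/f, against 46.05, 122 and 30.6 CPM in those labelled Tfam f/f. No library of one group reached the other, and the gene was 7.02-fold higher (log2 fold change 2.81, SE 0.49, adjusted p = 0.00397). Cyp2j11 had 322, 313 and 294 CPM in libraries labelled KspCre Tfam f/f, against 86.8, 151 and 35.5 CPM in those labelled Tfam f/f. Its groups also stood apart, and it was 3.39-fold higher (log2 fold change 1.76, SE 0.45, adjusted p = 0.0165). Leaving out Tfam f/f replicate 2 raised the log2 fold changes of Cyp2j13 to 3.62, Cyp2j11 to 2.35 and Cyp2j5 to 2.45. The call of Cyp2j5 was lost without Tfam f/f replicate 1 (adjusted p = 2.18e-05 to 0.0644 over the 15 alternatives that tested it), and that of Cyp2j11 without that library, without KspCre Tfam f/f replicate 1 or with no filter on low counts (adjusted p = 9.47e-05 to 0.0995 over the 15 alternatives that tested it).

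The remaining Cyp2j genes were not called. Cyp2j6 had 76.7, 72.9 and 70.2 CPM in libraries labelled KspCre Tfam f/f, against 69.3, 67.3 and 67.4 CPM in those labelled Tfam f/f. Although no library overlapped, its difference was small and was not called (log2 fold change 0.11, SE 0.08, adjusted p = 0.307). With scaling by total counts alone its direction turned and it was called lower, at a log2 fold change of -0.32. Cyp2j9 (log2 fold change 0.15, SE 0.13, adjusted p = 0.343), Cyp2j7 (log2 fold change 0.29, SE 0.21, adjusted p = 0.283) and Cyp2j8 (log2 fold change 0.50, SE 0.48, adjusted p = 0.417) followed, the last with a wide error. The ratio of Cyp2j5 to Cyp2j6 within a library, per kilobase, lay between 44.2 and 47.2 in KspCre Tfam f/f and between 5.80 and 23.0 in Tfam f/f. The promoters of the 6 Cyp2j genes with an entry were identical, pair by pair, at 44.9% to 51.5% of the positions of a gapped alignment. The identity of unrelated promoters was not computed, so this range cannot show a resemblance.

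None of the 3 Cyp2c genes was called. Cyp2c44, an epoxygenase of mouse kidney, had 31.5, 28.9 and 27.4 CPM in libraries labelled KspCre Tfam f/f, against 27.3, 35.9 and 10.95 CPM in those labelled Tfam f/f. The groups overlapped (log2 fold change 0.24, SE 0.36, adjusted p = 0.616). Cyp2c69 had 0.845, 1.21 and 0.954 CPM in libraries labelled KspCre Tfam f/f, against 0.771, 1.16 and 0.0839 CPM in those labelled Tfam f/f, and Cyp2c68 had 0.141, 0.266 and 0.382 CPM in libraries labelled KspCre Tfam f/f, against 0.441, 0.659 and 0.04197 CPM in those labelled Tfam f/f. Both were low and their groups overlapped. Neither Cyp2c69 (log2 fold change 0.52, SE 0.61, adjusted p = 0.513) nor Cyp2c68 (log2 fold change -0.67, SE 0.71, adjusted p = 0.464) was called, and without Tfam f/f replicate 2 their log2 fold changes were 1.20 and 0.02. Cyp2c69 shared 20.2% and Cyp2c68 8.83% of its 150-base exon windows with another gene, so their counts are uncertain.

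**Figure D3:**
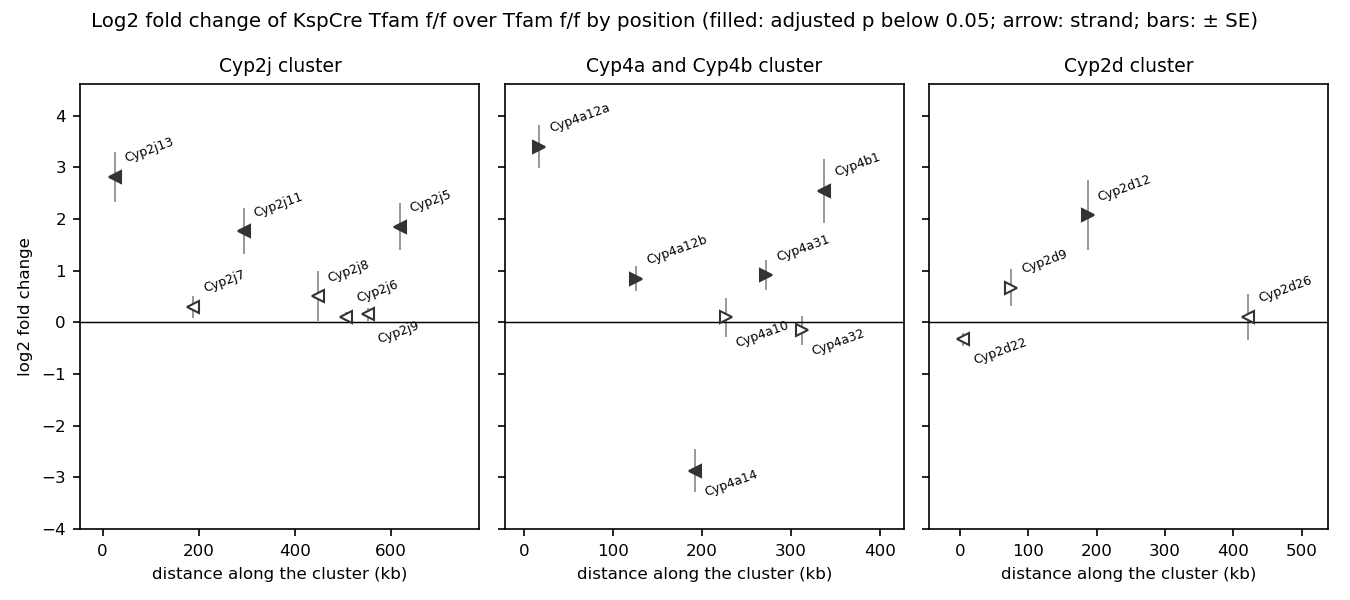
Log2 fold change of KspCre Tfam f/f over Tfam f/f (with SE bars) against position in kilobases along the Cyp2j, Cyp4a with Cyp4b, and Cyp2d clusters, where each triangle is a gene pointing in its direction of transcription and filled triangles had an adjusted p below 0.05. Called and uncalled genes lie side by side in each cluster, and Cyp4a14, at -2.87, lies between Cyp4a12b and Cyp4a10.

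The omega-hydroxylases of family 4 moved in both directions, with 7 of 15 members called higher and 5 called lower, beside 21.3% and 24.9% of all genes. Among those called, Cyp4f14, Cyp4f15 and Cyp4f39 passed the minimum count for members only through their higher group. Cyp4b1 (ENSMUSG00000028713.17, chromosome 4, 115624725 to 115647723, minus strand), which hydroxylates medium-chain fatty acids and activates some plant and mould toxins, was the most abundant P450 in the data. It had 3074, 3831 and 3539 CPM in libraries labelled KspCre Tfam f/f, against 531, 1103 and 159 CPM in those labelled Tfam f/f. The groups were far apart, and the highest Tfam f/f library, replicate 2, was well above the lowest, replicate 3. Cyp4b1 was 5.82-fold higher (log2 fold change 2.54, SE 0.62, adjusted p = 0.0137). Its log2 fold change was 3.35 without Tfam f/f replicate 2, and its call was lost without Tfam f/f replicate 1 or with no filter on low counts (adjusted p = 0.000564 to 0.0771 over the 15 alternatives that tested it).

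Within the Cyp4a subfamily of fatty acid omega-hydroxylases, the summed level overlapped between the groups while single members changed. Summed CPM was 1104, 1084 and 1016 in libraries labelled KspCre Tfam f/f, against 1252, 1307 and 472 in those labelled Tfam f/f. The groups overlapped, with a ratio of means of 1.06. Of the 6 members, 3 were called higher and 1 lower, beside 21.3% and 24.9% of all genes. Cyp4a took 9.34% ± 0.661 of P450 reads in KspCre Tfam f/f and 26.5% ± 3.25 in Tfam f/f (SD, n = 3 each).

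Cyp4a14 (ENSMUSG00000028715.2, chromosome 4, 115486200 to 115496142, minus strand), known in mice as a gene that PPARalpha agonists induce strongly, had 49.5, 49.2 and 41.4 CPM in libraries labelled KspCre Tfam f/f, against 435, 447 and 142 CPM in those labelled Tfam f/f. All Tfam f/f libraries were above all KspCre Tfam f/f libraries, although Tfam f/f replicate 3 was far below the other two of its group. It was 7.299-fold lower (log2 fold change -2.87, SE 0.42, adjusted p = 0.00217), and it was called under each of the 15 alternatives. Cyp4a10, its neighbour and another PPARalpha-responsive gene, had 435, 399.6 and 384 CPM in libraries labelled KspCre Tfam f/f, against 479, 499 and 163 CPM in those labelled Tfam f/f. Here Tfam f/f replicates 1 and 2 were above the KspCre Tfam f/f libraries and replicate 3 was below them, and the gene was not called (log2 fold change 0.09, SE 0.38, adjusted p = 0.853). The ratio of Cyp4a14 to Cyp4a10 per kilobase, in which library scaling cancels, lay between 0.0876 and 0.0998 in KspCre Tfam f/f and between 0.705 and 0.737 in Tfam f/f. Cyp4a10 shared 4.04% of its exon windows with another gene, so its values, its shares and this ratio are uncertain to that extent.

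Cyp4a12a (ENSMUSG00000066071.6, chromosome 4, 115299046 to 115332815, plus strand), the male-predominant arachidonic acid hydroxylase of mouse kidney, had 75.5, 128 and 61.4 CPM in libraries labelled KspCre Tfam f/f, against 13.2, 5.98 and 6.001 CPM in those labelled Tfam f/f. KspCre Tfam f/f replicate 2 was the highest library and Tfam f/f replicates 2 and 3 the lowest, with no overlap. The gene was 10.6-fold higher (log2 fold change 3.40, SE 0.41, adjusted p = 0.00109). Its close copy Cyp4a12b had 16.7, 15.9 and 11.9 CPM in libraries labelled KspCre Tfam f/f, against 11.3, 7.67 and 5.88 CPM in those labelled Tfam f/f, and was 1.795-fold higher (log2 fold change 0.84, SE 0.25, adjusted p = 0.0261). Cyp4a12a and Cyp4a12b shared 25.6% and 25.9% of their exon windows with another gene, so reads of the pair are partly lost and their values are uncertain. The call of Cyp4a12b was lost with scaling by total counts alone and without KspCre Tfam f/f replicate 1, KspCre Tfam f/f replicate 2 or Tfam f/f replicate 2 (adjusted p = 0.00549 to 0.15 over the 15 alternatives that tested it).

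Cyp4a31 had 527, 490.5 and 518 CPM in libraries labelled KspCre Tfam f/f, against 313, 347 and 155 CPM in those labelled Tfam f/f. The groups did not overlap, with Tfam f/f replicate 3 far below the others, and the gene was 1.88-fold higher (log2 fold change 0.91, SE 0.28, adjusted p = 0.0323). This call was lost with scaling by total counts alone, without any 1 of the KspCre Tfam f/f replicates 1, 2 and 3, and without Tfam f/f replicate 1 (adjusted p = 0.00241 to 0.09799 over the 15 alternatives that tested it). Cyp4a32, detected at less than 1 CPM in every library, was not called (log2 fold change -0.16, SE 0.29, adjusted p = 0.675). Cyp4a31 and Cyp4a32 shared 3.54% and 6.96% of their exon windows with another gene, so their values and shares are uncertain to that extent. Per kilobase, Cyp4a31 made up 44.6% ± 2.67 of the subfamily in KspCre Tfam f/f and 26.6% ± 4.02 in Tfam f/f (SD, n = 3 each). Cyp4a14 made up 3.92% ± 0.224 in KspCre Tfam f/f and 30.01% ± 2.28 in Tfam f/f, while Cyp4a10 made up 42.1% ± 1.36 in KspCre Tfam f/f and 41.5% ± 2.30 in Tfam f/f.

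**Figure D4:**
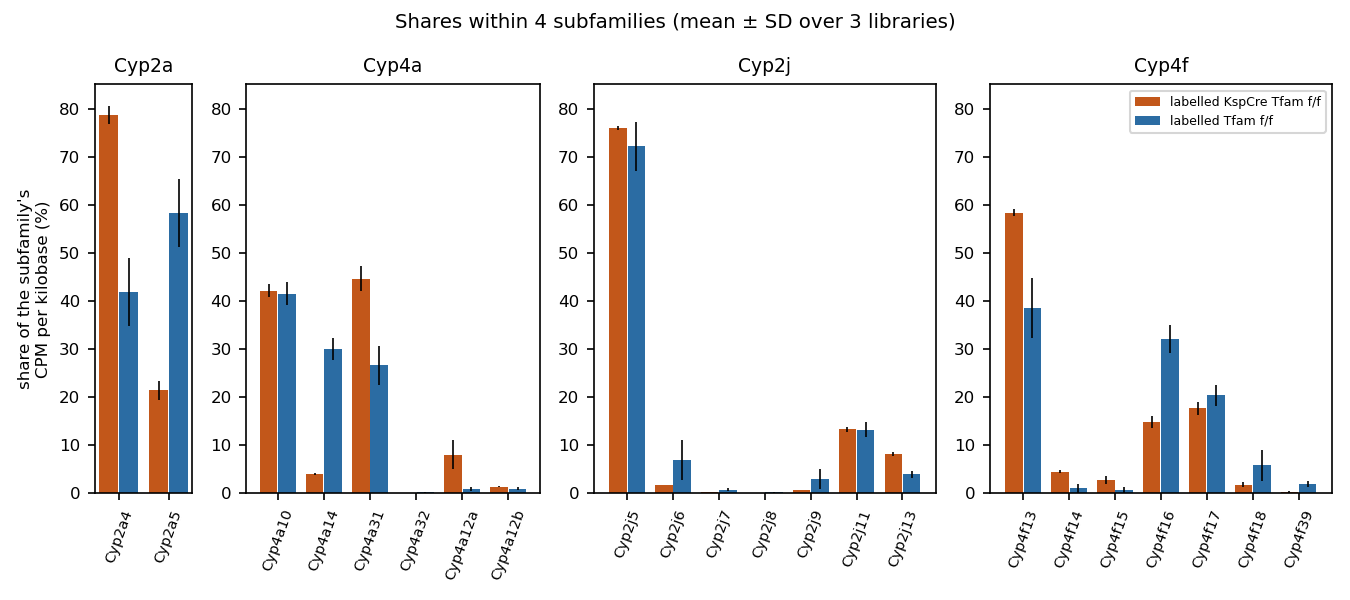
Share of each gene in its subfamily's CPM per kilobase (%) in the Cyp2a, Cyp4a, Cyp2j and Cyp4f subfamilies, as means over 3 libraries with SD bars, KspCre Tfam f/f beside Tfam f/f. Cyp2a4 holds 78.7% of its pair in KspCre Tfam f/f and 41.8% in Tfam f/f, and Cyp4a14 holds 3.92% of Cyp4a in KspCre Tfam f/f and 30.01% in Tfam f/f.

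The Cyp4f genes, whose enzymes inactivate leukotrienes and hydroxylate long fatty acids, split evenly, with 3 of 7 called higher, 3 lower and Cyp4f17 not called (log2 fold change -0.34, SE 0.17, adjusted p = 0.134). Of the called genes, Cyp4f14 (201 reads in KspCre Tfam f/f and 41 in Tfam f/f), Cyp4f15 (112 and 22) and Cyp4f39 (11 and 92) passed the minimum only through their higher group. The split thus depends in part on the rule for members. Cyp4f17 was called lower without Tfam f/f replicate 2 (log2 fold change -0.45) or with scaling by total counts alone (-0.78). Their summed level was 63.5 ± 1.84 CPM in KspCre Tfam f/f and 64.7 ± 4.87 CPM in Tfam f/f (SD, n = 3 each). Cyp4f13, the most abundant per kilobase, had 43.9, 43.1 and 42.2 CPM in libraries labelled KspCre Tfam f/f, against 34.6, 31.1 and 27.4 CPM in those labelled Tfam f/f. It was 1.39-fold higher (log2 fold change 0.47, SE 0.10, adjusted p = 0.00919), without overlap, and the call was lost with scaling by total counts alone (adjusted p = 0.0020 to 0.708 over the 15 alternatives that tested it). Cyp4f16 had 7.87, 6.96 and 7.86 CPM in libraries labelled KspCre Tfam f/f, against 18.7, 14.6 and 20.9 CPM in those labelled Tfam f/f, and was 2.39-fold lower (log2 fold change -1.26, SE 0.16, adjusted p = 0.00118). Its libraries did not overlap either. Cyp4f16 shared 1.60% of its exon windows with another gene, so its values are uncertain to that extent. The ratio of Cyp4f13 to Cyp4f16 per kilobase lay between 3.71 and 4.28 in KspCre Tfam f/f and between 0.903 and 1.47 in Tfam f/f.

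The other called Cyp4f genes were low. Cyp4f39, the mouse counterpart of a human skin-barrier fatty acid hydroxylase, had 0.164, 0.0242 and 0.114 CPM in libraries labelled KspCre Tfam f/f, against 0.918, 1.24 and 0.839 CPM in those labelled Tfam f/f. These levels rested on 11 reads in KspCre Tfam f/f and 92 in Tfam f/f, did not overlap, and gave a value 9.75-fold lower (log2 fold change -3.29, SE 0.51, adjusted p = 0.002496), or a log2 fold change of -3.95 without KspCre Tfam f/f replicate 1. Cyp4f18, which hydroxylates leukotriene B4 in mouse neutrophils, had 0.517, 0.701 and 0.4197 CPM in libraries labelled KspCre Tfam f/f, against 1.36, 1.19 and 3.48 CPM in those labelled Tfam f/f. Every Tfam f/f library was above every KspCre Tfam f/f library, with Tfam f/f replicate 3 the highest. Cyp4f18 was 3.56-fold lower (log2 fold change -1.83, SE 0.48, adjusted p = 0.0167), its log2 fold change was -1.19 without Tfam f/f replicate 3, and its call was lost without KspCre Tfam f/f replicate 1 or 3 (adjusted p = 0.00121 to 0.0621 over the 15 alternatives that tested it). It overlaps Zfp961 on the other strand, so its count is uncertain.

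Of all genes, 24.9% were called lower in KspCre Tfam f/f. In the same Tfam f/f replicate 3, the 10 macrophage markers, of which 9 were called lower in KspCre Tfam f/f, also reached their highest sum. They summed to 139 to 154 CPM in KspCre Tfam f/f and 191 to 594 CPM in Tfam f/f, and their part in the Cyp4f18 result was not tested.

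Cyp4f14 had 1.81, 1.96 and 1.64 CPM in libraries labelled KspCre Tfam f/f, against 0.404, 0.764 and 0.04197 CPM in those labelled Tfam f/f, and was 4.16-fold higher (log2 fold change 2.06, SE 0.58, adjusted p = 0.0224). Cyp4f15 had 0.728, 1.33 and 0.992 CPM in libraries labelled KspCre Tfam f/f, against 0.0734, 0.501 and 0.04197 CPM in those labelled Tfam f/f, and was 4.34-fold higher (log2 fold change 2.12, SE 0.67, adjusted p = 0.0345). In both genes KspCre Tfam f/f was above Tfam f/f in every library. Without Tfam f/f replicate 2 their log2 fold changes were 2.96 and 4.05. Both calls were lost without any 1 of the KspCre Tfam f/f replicates 1, 2 and 3 or Tfam f/f replicate 1, and that of Cyp4f15 also without Tfam f/f replicate 3 or with libraries thinned to the shallowest (Cyp4f14, adjusted p = 0.00175 to 0.0796 over the 15 alternatives that tested it; Cyp4f15, adjusted p = 0.00209 to 0.114 over the 14 alternatives that tested it). Cyp4v3, the mouse counterpart of a human fatty acid hydroxylase of the retina, had 5.92, 5.56 and 5.53 CPM in libraries labelled KspCre Tfam f/f, against 12.7, 12.9 and 17.5 CPM in those labelled Tfam f/f. Its groups stood apart, and it was 2.52-fold lower (log2 fold change -1.34, SE 0.16, adjusted p = 0.00102), although it overlaps Gm45753 on the same strand.

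**Figure D5:**
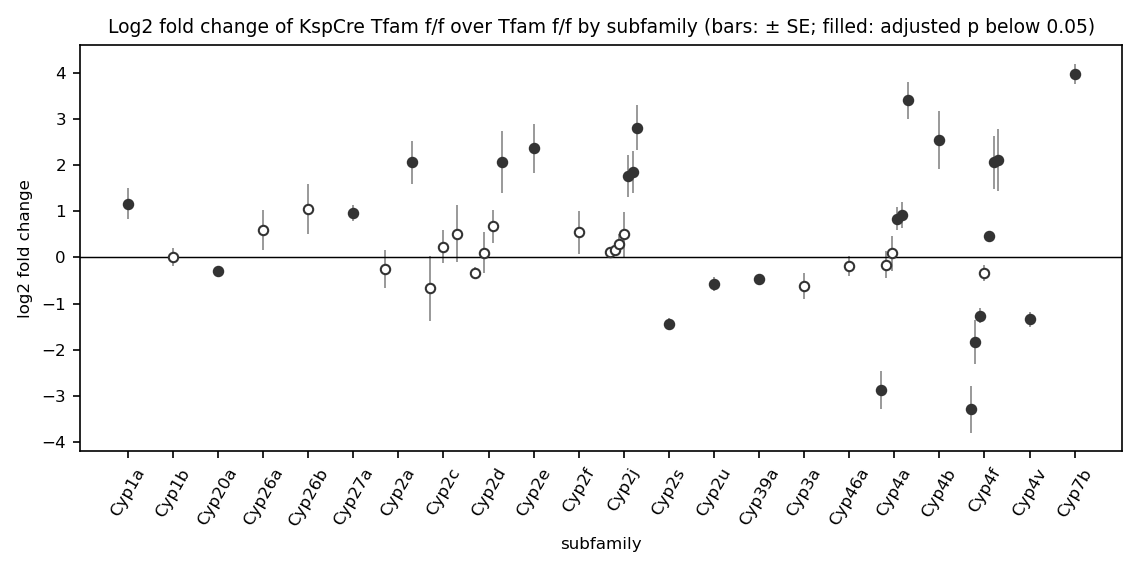
Log2 fold change of KspCre Tfam f/f over Tfam f/f for each P450 gene, grouped by subfamily, with SE bars and filled symbols for genes with an adjusted p below 0.05. The Cyp4a and Cyp4f columns span both directions, and no Cyp2j gene lies below 0 with TMM scaling, though Cyp2j6 did with scaling by total counts alone.

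Among P450s of steroids and foreign compounds, Cyp2a4 was called higher and Cyp2a5 was not, although the genes are near-copies. Their promoters are shown because only 4 aligned bases of the upstream 250 differ, 245 are identical and the ends are offset by 1 base each, an identity of 97.6%. Capitals mark the differing and unaligned bases.
Cyp2a4, chr7:26306942-26307191, plus strand: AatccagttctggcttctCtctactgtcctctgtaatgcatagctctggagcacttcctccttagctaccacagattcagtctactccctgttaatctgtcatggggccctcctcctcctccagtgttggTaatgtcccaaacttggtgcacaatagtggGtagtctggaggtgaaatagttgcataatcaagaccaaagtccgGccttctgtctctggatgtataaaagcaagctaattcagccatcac
Cyp2a5, chr7:26835089-26835338, plus strand: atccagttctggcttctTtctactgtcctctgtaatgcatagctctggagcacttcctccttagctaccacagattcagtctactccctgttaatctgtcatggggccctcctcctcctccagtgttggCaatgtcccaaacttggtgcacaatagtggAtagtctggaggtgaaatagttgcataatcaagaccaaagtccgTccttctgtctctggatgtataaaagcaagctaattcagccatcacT
Cyp2a4 (ENSMUSG00000074254.4, chromosome 7, 26307169 to 26315088, plus strand), a testosterone hydroxylase, had 797, 799 and 763 CPM in libraries labelled KspCre Tfam f/f, against 242, 260.4 and 63.9 CPM in those labelled Tfam f/f. The KspCre Tfam f/f libraries lay close together above the Tfam f/f libraries, of which replicate 3 was far the lowest. Cyp2a4 was 4.17-fold higher (log2 fold change 2.06, SE 0.47, adjusted p = 0.01096), and its call was lost with no filter on low counts (adjusted p = 6.72e-06 to 0.0628 over the 15 alternatives that tested it). Cyp2a5 (ENSMUSG00000005547.14, chromosome 7, 26835305 to 26843548, plus strand), a coumarin hydroxylase, had 263, 285 and 218 CPM in libraries labelled KspCre Tfam f/f, against 469.7, 312 and 127 CPM in those labelled Tfam f/f. Tfam f/f libraries were both the highest and the lowest, so the groups overlapped, and the gene was not called (log2 fold change -0.25, SE 0.41, adjusted p = 0.643). Without Tfam f/f replicate 3 it was called lower, at a log2 fold change of -0.62.

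Within each library, the ratio of Cyp2a4 to Cyp2a5 per kilobase lay between 3.34 and 4.18 in KspCre Tfam f/f and between 0.598 and 0.996 in Tfam f/f. For this pair, and for the 4 other ratios computed between genes of 1 subfamily (Cyp4a14 to Cyp4a10, Cyp4a12a to Cyp4a12b, Cyp2j5 to Cyp2j6 and Cyp4f13 to Cyp4f16), the groups did not overlap. The two-sided exact permutation test gave p = 0.1 for each, 0.1 after adjustment over the 5, and 3 against 3 libraries cannot give a smaller p. These pairs were chosen after their values were seen. Cyp2a4 and Cyp2a5 shared 4.22% and 4.57% of their exon windows with another gene.

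Cyp2e1 (ENSMUSG00000025479.9, chromosome 7, 140763739 to 140774987, plus strand), which oxidises ethanol and small solvents, had 1687, 2035 and 1909.8 CPM in libraries labelled KspCre Tfam f/f, against 339, 637 and 119.9 CPM in those labelled Tfam f/f. The groups stood far apart, with the Tfam f/f libraries in the order replicate 2, 1 and 3. Cyp2e1 was 5.14-fold higher (log2 fold change 2.36, SE 0.54, adjusted p = 0.0107). Without Tfam f/f replicate 2 its log2 fold change was 3.05, and its call was lost without Tfam f/f replicate 1 or with no filter on low counts (adjusted p = 1.93e-06 to 0.0596 over the 15 alternatives that tested it).

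Of the 4 Cyp2d genes, Cyp2d12 was called higher and the others were not called. Cyp2d12 had 117, 113 and 89.9 CPM in libraries labelled KspCre Tfam f/f, against 20.4, 50.4 and 4.78 CPM in those labelled Tfam f/f. No libraries overlapped, although Tfam f/f ranged widely, and the gene was 4.21-fold higher (log2 fold change 2.07, SE 0.67, adjusted p = 0.0386). Its log2 fold change was 3.09 without Tfam f/f replicate 2, and the call was lost without any 1 of KspCre Tfam f/f replicates 1, 2 and 3 or Tfam f/f replicate 1, or with no filter (adjusted p = 0.00506 to 0.194 over the 15 alternatives that tested it). Cyp2d9, a male-predominant steroid hydroxylase in mouse liver, had 154, 187 and 167 CPM in libraries labelled KspCre Tfam f/f, against 147, 123 and 48.01 CPM in those labelled Tfam f/f, and was not called (log2 fold change 0.67, SE 0.36, adjusted p = 0.162) although its groups did not overlap. Cyp2d9 shared 1.71% of its exon windows with another gene and overlaps Gm46501 on the same strand, so its count is uncertain. Cyp2d26 had 101, 128 and 109 CPM in libraries labelled KspCre Tfam f/f, against 122, 156 and 37.2 CPM in those labelled Tfam f/f. Its groups overlapped and it was not called (log2 fold change 0.10, SE 0.44, adjusted p = 0.861). Cyp2d22 had 24.1, 26.2 and 21.4 CPM in libraries labelled KspCre Tfam f/f, against 31.1, 33.4 and 25.8 CPM in those labelled Tfam f/f, with overlap between the groups. It was not called (log2 fold change -0.33, SE 0.13, adjusted p = 0.0656), but was called lower without Tfam f/f replicate 3 (log2 fold change -0.43) and with 2 other scalings.

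Cyp2s1, an epithelial P450 known as a target of the dioxin receptor AHR, had 23.3, 23.5 and 24.9 CPM in libraries labelled KspCre Tfam f/f, against 68.8, 54.9 and 70.1 CPM in those labelled Tfam f/f. The groups were well apart with little spread, and Cyp2s1 was 2.702-fold lower (log2 fold change -1.43, SE 0.11, adjusted p = 0.000195), a call held under each of the 15 alternatives. Cyp2u1, a fatty acid hydroxylase, had 6.04, 6.402 and 5.799 CPM in libraries labelled KspCre Tfam f/f, against 10.1, 8.03 and 9.07 CPM in those labelled Tfam f/f. It was 1.49-fold lower (log2 fold change -0.58, SE 0.15, adjusted p = 0.0153), without overlap, and the call was lost without any 1 of the KspCre Tfam f/f replicates 1, 2 and 3 (adjusted p = 0.00196 to 0.0719 over the 15 alternatives that tested it). Both overlap a gene on the other strand, over 5.27% and 10.5% of their exons. Cyp2f2, best known from lung, was not called (log2 fold change 0.55, SE 0.46, adjusted p = 0.356), but was called higher without Tfam f/f replicate 2 (log2 fold change 1.40).

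Of the classical AHR targets, Cyp1a1 was called and Cyp1b1 was not. Cyp1a1 was barely detected, with 0.822, 1.26 and 1.03 CPM in libraries labelled KspCre Tfam f/f, against 0.477, 0.5795 and 0.294 CPM in those labelled Tfam f/f. With 114 reads in KspCre Tfam f/f and 42 in Tfam f/f, it passed the minimum count for members only through its higher group. It was 2.24-fold higher (log2 fold change 1.16, SE 0.34, adjusted p = 0.0252) without overlap, and the call was lost with scaling by total counts alone and without KspCre Tfam f/f replicate 2 or 3 or Tfam f/f replicate 1 or 3 (adjusted p = 0.0193 to 0.102 over the 14 alternatives that tested it). Cyp1b1 had 28.3, 23.3 and 21.9 CPM in libraries labelled KspCre Tfam f/f, against 19.9, 31.7 and 20.9 CPM in those labelled Tfam f/f. Its groups overlapped and it was not called (log2 fold change 0.02, SE 0.19, adjusted p = 0.941). Cyp3a13, the 1 member of the main drug-metabolising family, had 0.869, 0.701 and 0.992 CPM in libraries labelled KspCre Tfam f/f, against 1.14, 1.13 and 1.68 CPM in those labelled Tfam f/f, and was not called (log2 fold change -0.62, SE 0.28, adjusted p = 0.106) although its groups did not overlap. With scaling by total counts alone it was called lower (log2 fold change -1.06).

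Among P450s of sterols and retinoids, Cyp7b1 (ENSMUSG00000039519.6, chromosome 3, 18071950 to 18243338, minus strand), which hydroxylates oxysterols and steroids, showed the largest rise of any member. It had 283, 271 and 309.9 CPM in libraries labelled KspCre Tfam f/f, against 21.7, 20.4 and 12.8 CPM in those labelled Tfam f/f. The libraries of each group lay close together and far from the other group. Cyp7b1 was 15.7-fold higher (log2 fold change 3.97, SE 0.22, adjusted p = 5.21e-05), the smallest adjusted p among the members, and it was called under each of the 15 alternatives. Cyp27a1, the mitochondrial sterol hydroxylase, had 50.8, 59.7 and 50.2 CPM in libraries labelled KspCre Tfam f/f, against 28.02, 33.7 and 20.9 CPM in those labelled Tfam f/f. Without overlap between groups, it was 1.94-fold higher (log2 fold change 0.96, SE 0.17, adjusted p = 0.00433), likewise under each alternative.

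Cyp39a1, another oxysterol hydroxylase, had 12.7, 14.1 and 13.5 CPM in libraries labelled KspCre Tfam f/f, against 17.8, 19.4 and 18.3 CPM in those labelled Tfam f/f. The groups did not overlap, and it was 1.38-fold lower (log2 fold change -0.47, SE 0.10, adjusted p = 0.00961), a call lost without KspCre Tfam f/f replicate 1 (adjusted p = 0.000773 to 0.0553 over the 15 alternatives that tested it). Cyp20a1, whose substrate is not established, had 19.1, 16.8 and 18.1 CPM in libraries labelled KspCre Tfam f/f, against 23.4, 20.9 and 22.1 CPM in those labelled Tfam f/f. It was 1.23-fold lower (log2 fold change -0.30, SE 0.10, adjusted p = 0.0451), and this call was lost under 10 alternatives (adjusted p = 0.00229 to 0.186 over the 15 alternatives that tested it), among them leaving out any library except Tfam f/f replicate 2. Cyp46a1, the cholesterol hydroxylase of brain, had 1.97, 2.39 and 2.404 CPM in libraries labelled KspCre Tfam f/f, against 2.83, 2.19 and 2.69 CPM in those labelled Tfam f/f. Cyp46a1 was not called (log2 fold change -0.18, SE 0.21, adjusted p = 0.496), and its groups overlapped.

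Cyp26b1, which clears retinoic acid, had 1.53, 5.22 and 7.097 CPM in libraries labelled KspCre Tfam f/f, against 1.395, 3.19 and 1.97 CPM in those labelled Tfam f/f. KspCre Tfam f/f replicate 1 lay among the Tfam f/f libraries while replicates 2 and 3 were above them, and the gene was not called (log2 fold change 1.05, SE 0.55, adjusted p = 0.153). Without KspCre Tfam f/f replicate 1 it was called higher, at a log2 fold change of 1.49. Cyp26a1, with less than 1 CPM in every library, was not called (log2 fold change 0.59, SE 0.44, adjusted p = 0.292).

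A list of 41 partners and regulators of P450s was examined beside the members. It was chosen with earlier results of these data known, so its shares only describe the list. Of the 40 that were tested, 17 were called higher (42.5%), 8 lower (20%) and 15 were not called, beside 21.3% and 24.9% of all genes, and the median log2 fold change was 0.47. Por, the reductase that feeds electrons to microsomal P450s, had 411, 433 and 445 CPM in libraries labelled KspCre Tfam f/f, against 246, 273 and 141 CPM in those labelled Tfam f/f. It was higher without overlap (1.95-fold, adjusted p = 0.0145), a call lost without KspCre Tfam f/f replicate 3 (adjusted p = 0.000393 to 0.0512 over the 15 alternatives that tested it). Cyb5a (2.49-fold, adjusted p = 0.0108), a second electron donor, and Fdx1 (2.197-fold, adjusted p = 0.00367), the ferredoxin of mitochondrial P450s, were also higher, which made 3 of 6 electron donors. Of 5 genes of heme supply and breakdown, Fech, which inserts iron into heme, was higher (1.84-fold, adjusted p = 0.00512) and Hmox1, which degrades heme, was lower (3.22-fold, adjusted p = 0.00249).

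The epoxide hydrolases moved in opposite directions. Ephx2, which hydrolyses the epoxides of arachidonic acid, had 602, 634 and 609 CPM in libraries labelled KspCre Tfam f/f, against 224, 248 and 98.5 CPM in those labelled Tfam f/f, and was 3.24-fold higher (log2 fold change 1.69, SE 0.32, adjusted p = 0.00534). Ephx1, the microsomal enzyme for foreign epoxides, had 53.8, 52.1 and 53.3 CPM in libraries labelled KspCre Tfam f/f, against 222, 157 and 164 CPM in those labelled Tfam f/f, and was 3.41-fold lower (log2 fold change -1.77, SE 0.15, adjusted p = 0.000239). Neither gene's groups overlapped.

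Of 16 receptors and other regulators tested, 8 were called higher and 3 lower, beside 21.3% and 24.9% of all genes. Hnf4a, a transcription factor of proximal tubule and liver, had 869.6, 978 and 920.0 CPM in libraries labelled KspCre Tfam f/f, against 327, 481 and 169 CPM in those labelled Tfam f/f. It was higher without overlap (2.83-fold, adjusted p = 0.0109), a call lost without Tfam f/f replicate 1. Ppara, the receptor that drives Cyp4a10 and Cyp4a14, had 79.8, 84.5 and 85.9 CPM in libraries labelled KspCre Tfam f/f, against 34.2, 55.2 and 15.1 CPM in those labelled Tfam f/f. It too was higher (2.38-fold, adjusted p = 0.0338), but the call was lost without any 1 of KspCre Tfam f/f replicates 1, 2 and 3 or Tfam f/f replicate 1, with scaling by total counts alone and with no filter (adjusted p = 0.00299 to 0.168 over the 15 alternatives that tested it). Ahr, the dioxin receptor, was 1.43-fold lower (log2 fold change -0.52, SE 0.18, adjusted p = 0.0438), a call lost without any 1 of KspCre Tfam f/f replicates 1, 2 and 3 or Tfam f/f replicate 3, or with libraries thinned to the shallowest.

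Other PPAR targets were called in both directions, beside 21.3% of all genes called higher and 24.9% called lower. Of 9, 3 were higher, among them Ehhadh (3.29-fold, adjusted p = 0.0117) and Cpt1a (1.68-fold, adjusted p = 0.0231), which act in fatty acid oxidation. Of the 2 that were lower, Pdk4, a kinase that restrains glucose oxidation, was 1 (2.62-fold, adjusted p = 0.0153). The call of Pdk4 was lost without KspCre Tfam f/f replicate 1 or with no filter, and that of Cpt1a with scaling by total counts alone or without any library except Tfam f/f replicates 2 and 3.

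Markers of proximal tubule, the segment where most renal P450s are found, moved with the members called higher. Like the partners, these and the markers below were listed with earlier results of these data known. All 14 proximal tubule markers were higher in every KspCre Tfam f/f library than in any Tfam f/f library, as were 29.8% of all genes. Of the 14 markers, 10 were called higher, beside 21.3% of all genes, and their median log2 fold change was 1.66. They summed to 44370 to 46069 CPM in KspCre Tfam f/f, and to 8484, 14071 and 3011 CPM in Tfam f/f replicates 1, 2 and 3, the same order of libraries as in 12 of the 16 members called higher. Kap alone held most of the KspCre Tfam f/f sums, at 25991 to 26754.5 CPM. In Tfam f/f replicates 1, 2 and 3 Kap had 2801, 4391 and 952 CPM, so the sums follow this gene closely. The part of proximal tubule abundance in the P450 results was not tested.

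Markers of other cells were also summed. Their calls stand beside 21.3% of all genes called higher and 24.9% called lower. The 5 markers of the tubule targeted by Ksp-Cre included 2 called higher, and summed to 10299 to 11328 CPM in KspCre Tfam f/f and 4279 to 7033 CPM in Tfam f/f. All 4 tubular injury markers were called lower, with sums of 28.7 to 31.4 CPM in KspCre Tfam f/f and 477 to 2217 CPM in Tfam f/f, and 3 of 6 stromal markers were called lower, with sums of 129 to 177 CPM in KspCre Tfam f/f and 206 to 300.3 CPM in Tfam f/f. None of 5 endothelial markers was called (231 to 239.9 CPM in KspCre Tfam f/f and 142 to 275 CPM in Tfam f/f). Their part in the results was not tested. Of 8 hepatocyte markers, Apob, Ttr and Apoa1 were called higher, Serpina1a and Fgb lower, and Alb was not called, with sums of 472 to 488 CPM in KspCre Tfam f/f and 141 to 343 CPM in Tfam f/f. Apob held most of these sums, at 337 to 364 CPM in KspCre Tfam f/f and 53.1 to 182 CPM in Tfam f/f, while Ttr stood at 69.8 to 114 CPM in KspCre Tfam f/f and 9.27 to 44.8 CPM in Tfam f/f. Ahsg and Tat were at or below 0.0734 CPM in every library, and the part of liver RNA in the results was not tested. The 7 adrenal markers, 2 of them tested, summed to 5.34 to 6.43 CPM in KspCre Tfam f/f and 4.20 to 7.11 CPM in Tfam f/f, with none called and Chga and Dbh at 0 in all 6 libraries.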

How the data were processed

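The values the authors deposited are unnormalized read counts per gene. Per the labels' protocols, libraries were strand-specific and read as pairs of 150 bases. Submitters' processing notes name STAR 2.4.1d, HTSeq 0.11.0 and build mm10, while the counting's strand setting was not given in the sources used here. Each file held 54146 genes and 5 summary lines, which made up 16.0% to 20.4% of the total and were left out. Reads aligned to several places entered no gene, so near-identical P450 genes have too few counts.

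Genes were filtered with filterByExpr (minimum count 10, minimum total 15) and tested with edgeR 4.0.16 in R 4.3.3 (TMM, glmQLFit, glmQLFTest), with Benjamini-Hochberg adjustment and a threshold of 0.05. DESeq2 1.42.0, limma voom 3.58.1, other scalings and filters, thinned libraries, a replicate block and each library left out made 15 alternatives, and 8 low members were not tested under 1 or more of them. Positions and exon lengths came from GENCODE M21, where 54079 identifiers matched without version. Shared windows are 150-base stretches of exon found in another gene. RefSeq promoters were matched for 32 members and not for Cyp4a12a, Cyp4f17, Cyp4a10, Cyp2j7, Cyp2d12, Cyp2u1, Cyp4a31, Cyp39a1, Cyp7b1, Cyp4a12b, Cyp2c44, Cyp4a14 and Cyp2d22.

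The members and lists were chosen with earlier results of these data known. Any member could be named. Values per library were due for the member of highest level per kilobase in each family, the 2 smallest p and the highest level in each subfamily of 3 or more, and the 8 largest called changes each way without overlap. They were added for other members where useful. The 3 libraries per group limit the precision. Values of some called partner genes are not reported here.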

Additional observations from a re-analysis of the deposited data

Results flagged for a closer look

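Reads aligned to several places, which enter no gene count, made up a mean of 10.6% of the reads in libraries labelled KspCre Tfam f/f and 5.73% in those labelled Tfam f/f, and the ranges, 10.4% to 10.8% and 5.06% to 6.74%, did not overlap. It drew attention because these reads lie outside the counts tested here and differ between the groups. Their part in the P450 results was not tested. Among the 33 members with at most 1% of exon windows shared, 12 were called higher (36.4%) and 7 lower (21.2%), beside 21.3% and 24.9% of all genes.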

How the results depend on the processing

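Of the 25 members called, 8 kept their call under all 15 alternatives (Cyp7b1, Cyp4a12a, Cyp2j13, Cyp27a1, Cyp4a14, Cyp2s1, Cyp4v3 and Cyp4f16), Cyp4f39 kept it under the 14 that tested it, since its mean lay below 1 CPM, 16 lost it under at least 1, and 6 members not called gained a call under at least 1. Only Cyp2j6 reversed, to a log2 fold change of -0.32 with scaling by total counts alone. That scaling moved the median log2 fold change of all genes by -0.43 and gave 1680 genes higher and 8519 lower, and 14 partner genes lower. With no filter on low counts, 5 partner genes were lower. With 1 library left out, all genes called higher ranged between 2276 and 4652, all genes called lower between 2822 and 4942, members called higher between 7 and 16, members called lower between 5 and 10, and partner genes called lower between 3 and 9. The cause was not tested. Replicate numbers are shared between the groups. Deviations from the group mean correlated at -0.22, -0.072 and -0.065 between libraries of the same number, and at -0.096 to 0.27 between those of different numbers. Such correlations over 3 libraries per group cannot show whether libraries of the same number were paired, and the main test used the labelled group alone. With the replicate block, 16 members were called higher and 8 lower, and 3227 and 3586 of all genes. Members with few reads, such as Cyp4f39 with 103 in all, are limited by depth.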
